A study of Mus musculus with 39 samples.

Results

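The 7 genes *Eid2*, *Stmn3*, *Apom*, *Tssk6*, *Otud7a*, *Slc22a4* and *Rtn4rl1* were followed through early mouse development and after treatment with histone deacetylase inhibitors (HDACi). They were chosen by their measured 2-cell intensities, which were lower after both HDACi than in the control, so the 2-cell differences from the control are given below as a description, with no test. They are 7 of the 22327 genes named on the array, and all 7 were among the 15913 genes that passed the detection filter in the treatment comparison. The data comprised 39 arrays of mouse oocytes and embryos in 13 conditions with 3 arrays each, and each array held RNA pooled from 100 oocytes or embryos. The study took oocytes for fertilization from B6D2F1 females and sperm from ICR males. The embryos were thus of the strain combination B6D2F1 x ICR, while unfertilized oocytes had no ICR contribution. The embryos came from in vitro fertilization and were cultured in vitro, in the control groups as in the treated groups. Zygotes were exposed for 6 h from 4 h post insemination (hpi) to 10 µM T247, described by the study as an inhibitor of HDAC3, or to 10 µM MGCD0103, described as an inhibitor of Class I HDACs, and were then returned to medium without inhibitor. Untreated and treated embryos were collected at 12 hpi (1-cell), 24 hpi (2-cell) and 48 hpi (4-cell). MGCD0103 had arrays at the 1-cell and 2-cell stages, and T247 at all 3 stages. The other 5 conditions were untreated germinal vesicle (GV) and metaphase II (MII) oocytes, 8-cell embryos, morulae and blastocysts. In pools of embryos, fewer embryos that express a gene and less RNA per embryo cannot be told apart.

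Histone deacetylases remove acetyl groups from histone tails, and inhibitors raise acetylation. In the mouse, the zygote lives at first on RNA stored in the oocyte, a minor wave of transcription begins in the 1-cell embryo, and the main zygotic genome activation (ZGA) takes place at the 2-cell stage. Some genes of that wave stay on in later stages and others are transcribed only briefly. The 7 genes have unrelated roles. *Eid2* encodes a nuclear inhibitor of the acetyltransferase p300, *Stmn3* a stathmin that destabilizes microtubules, and *Apom* an apolipoprotein that carries sphingosine 1-phosphate. *Tssk6* encodes a testis-specific serine kinase needed for sperm formation, *Otud7a* a deubiquitinase, *Slc22a4* a transporter of organic cations and ergothioneine, and *Rtn4rl1* a receptor of the Nogo receptor family.

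Each gene was read by a single 60-base probe, matched by the RefSeq accession in the array's annotation. In mm9, the build of that annotation, the probes lay at chr7:29053621-29053680 for *Eid2*, chr2:181041396-181041455 for *Stmn3*, chr17:35267047-35267106 for *Apom*, chr8:72427356-72427415 for *Tssk6*, chr7:70903851-70903910 for *Otud7a*, chr11:53796841-53796900 for *Slc22a4* and chr11:75080214-75080273 for *Rtn4rl1*. No pair of the 7 genes was adjacent on a chromosome. The upstream sequences are shown because the genes differ in base composition although they were low together at the 2-cell stage. RefSeq (GRCm38.p6) gave a promoter window for 6 of the 7 genes, all but *Rtn4rl1*. The 200 bases before the start are printed on the strand of the gene, with matches to the motifs searched in capitals.
Eid2, chr7:28267681-28267880, plus strand: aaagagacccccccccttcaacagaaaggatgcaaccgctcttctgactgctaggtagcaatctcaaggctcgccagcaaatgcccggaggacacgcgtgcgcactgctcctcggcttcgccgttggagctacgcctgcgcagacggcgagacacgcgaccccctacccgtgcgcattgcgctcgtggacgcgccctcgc
Stmn3, chr2:181314501-181314700, minus strand: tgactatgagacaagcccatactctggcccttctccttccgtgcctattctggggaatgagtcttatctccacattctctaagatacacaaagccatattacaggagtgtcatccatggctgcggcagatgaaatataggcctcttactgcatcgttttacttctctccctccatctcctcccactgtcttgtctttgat
Apom, chr17:35131802-35132001, minus strand: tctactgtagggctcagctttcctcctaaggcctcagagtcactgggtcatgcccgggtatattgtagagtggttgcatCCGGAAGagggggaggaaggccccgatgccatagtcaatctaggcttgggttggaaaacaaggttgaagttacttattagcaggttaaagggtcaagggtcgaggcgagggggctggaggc
Tssk6, chr8:69901984-69902183, plus strand: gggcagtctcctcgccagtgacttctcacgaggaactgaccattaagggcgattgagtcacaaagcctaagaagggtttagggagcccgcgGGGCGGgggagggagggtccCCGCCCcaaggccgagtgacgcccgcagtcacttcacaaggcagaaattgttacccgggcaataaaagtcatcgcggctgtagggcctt
Otud7a, chr7:63444572-63444771, plus strand: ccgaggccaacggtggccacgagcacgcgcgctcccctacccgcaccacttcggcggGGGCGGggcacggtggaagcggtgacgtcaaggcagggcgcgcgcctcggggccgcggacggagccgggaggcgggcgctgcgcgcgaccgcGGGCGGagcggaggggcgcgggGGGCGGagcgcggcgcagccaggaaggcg
Slc22a4, chr11:54028105-54028304, minus strand: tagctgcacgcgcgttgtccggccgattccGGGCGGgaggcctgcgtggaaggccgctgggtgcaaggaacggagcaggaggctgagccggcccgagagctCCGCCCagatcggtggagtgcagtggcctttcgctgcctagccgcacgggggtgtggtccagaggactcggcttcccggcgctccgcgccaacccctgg

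The windows differed in CG content. In the whole window of 300 bases, of which 250 lie before the start, *Otud7a* had 51 CG dinucleotides and a GC content of 80.3%, and 99.3% of the 32851 windows of that length had fewer CG dinucleotides. *Eid2* had 31 and *Slc22a4* 29, *Tssk6* had 14 and *Apom* 9, and *Stmn3* had 6 with a GC content of 49.7%, against medians of 7 CG dinucleotides and 52.7% GC over all windows. The motifs searched, on both strands, numbered 7. GGGCGG was found in *Otud7a* (3 matches), *Tssk6* (2) and *Slc22a4* (2), and 35.7% of all windows hold it. CCGGAAG was found in *Apom* and in 8.86% of all windows. CCAAT was found in *Eid2* and in 37.4% of all windows, and CACGTG in *Slc22a4* and in 7.15%, both upstream of the printed bases. The other 3 motifs were found in none of the 6 windows: TATAAA (in 13.6% of all windows), GGATTA (7.06%) and AGGTCA (16.3%). *Stmn3* held none of the 7 motifs. These are matches of letters only, and no motif was shared by more than 3 of the 6 windows.

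Control arrays of replicate number 1, 2 and 3 lay on slides 1, 2 and 3, T247 arrays on slides 4 and 5 and MGCD0103 arrays on slide 6, so slide and treatment cannot be told apart. At the 2-cell stage, control replicate 1 stood apart from replicates 2 and 3. Over the 15913 genes, replicates of a condition correlated with r from 0.988 to 0.996 in the other 7 conditions, but as low as 0.935 among the 2-cell controls. On the line from the mean 1-cell control (0) to the mean 4-cell control (1), this array lay at 0.325, the other 2-cell controls at 0.493 and 0.520, the T247 arrays between 0.417 and 0.436 and the MGCD0103 arrays between 0.296 and 0.319. These values describe the position of whole arrays, and their part in the results on the 7 genes was not tested. Markers of the egg and zygote, such as *Gdf9* and *Zp3*, were well above background on all 3 arrays of each condition through the 8-cell stage (7 of 7), as were all 5 measured markers of the 2-cell embryo in all 2-cell groups, *Zscan4c* and *Zfp352* among them. Of 6 cumulus cell markers, 2 or 3 were well above background on all 3 arrays of a 2-cell group, among them *Foxl2* (log2 intensity relative to the 75th percentile of the array 5.78 in the control, 5.16 after T247 and 5.47 after MGCD0103) and *Cyp19a1* (-0.58, -0.51 and 0.23). *Ptx3* and *Amh* were not well above background on any 2-cell array, and *Has2* was on 1 control, 3 T247 and 1 MGCD0103 array. Of 5 sperm markers 2 or 3 were well above background on all arrays of a 2-cell group. *Tnp1* was at -1.34, -3.47 and -3.64 on the same scale, with 2 control arrays well above background. *Prm1* was at -2.01, -2.32 and -2.19 and *Prm2* at 1.85, 1.54 and 2.41. *Tnp2* (-6.14, -5.06 and -4.77) and *Odf1* (-6.10, -6.28 and -6.26) were not well above background on any 2-cell array. Of 6 blastocyst markers 5 were above background on all 3 control arrays and 6 on all arrays of either treated group. *Krt18* was at 2.13, 4.06 and 3.99, *Krt8* at -0.07, 1.75 and 1.69 and *Cdx2* at -2.13, -0.64 and -1.28. The list did not move together, with *Nanog* at -1.76, -2.47 and -2.70, *Pou5f1* at 5.22, 4.95 and 5.13 and *Sox2* at 0.53, 1.13 and 0.24. The part of these markers in the results on the 7 genes was not tested.

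*Eid2*, *Stmn3* and *Apom* were lower on all treated 2-cell arrays than on all 3 control arrays. Normalized log2 intensities are used for these stages, and fold values come from differences on this scale. *Eid2* was at 7.38, 10.24 and 9.95 on control replicates 1, 2 and 3, at 4.62, 4.42 and 5.03 after T247, and at 2.94, 3.15 and 3.24 after MGCD0103, where no array was well above background and the value of replicate 1 was filled in. The mean was 22.7-fold lower after T247 (log2 difference -4.50, SE 0.45) and at least 40.0-fold lower after MGCD0103, a bound set by the background.

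*Stmn3* was at 8.66, 11.66 and 11.59 on the control arrays, at 7.27, 6.68 and 6.59 after T247 and at 5.03, 4.91 and 4.69 after MGCD0103. The groups did not overlap, although control replicate 1 lay 1.40 above the highest T247 array and 2.93 below the next control. The log2 difference was -3.79 for T247 and -5.76 for MGCD0103 (SE 0.48 for both), a 13.9-fold and a 54.2-fold lower level of this stathmin.

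*Apom* was at 9.61, 11.11 and 10.74 in the control, at 6.45, 6.41 and 6.31 after T247 and at 5.62, 5.58 and 5.57 after MGCD0103. The 3 arrays of each treatment lay within 0.14 of each other, and control replicate 1 was still 3.16 above the highest treated array. The log2 difference was -4.10 for T247 and -4.89 for MGCD0103 (SE 0.25 for both). Of the 7 genes, *Apom*, which encodes the sphingosine 1-phosphate carrier, differed least between control replicate 1 and the other controls, and the log2 difference from that replicate alone was -3.22 for T247 and -4.01 for MGCD0103.

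For *Tssk6*, *Otud7a*, *Slc22a4* and *Rtn4rl1* the lower level rested on control replicates 2 and 3, and control replicate 1 lay near or below the treated arrays. In the control, *Tssk6* was at 4.99, 10.60 and 10.10, against 4.60, 5.01 and 5.53 after T247 and 3.64, 3.64 and 4.21 after MGCD0103. Control replicate 1 of this sperm kinase lay inside the range of the T247 arrays and above the MGCD0103 arrays. The log2 difference from all controls was -3.51 for T247 and -4.73 for MGCD0103 (SE 0.89), from replicates 2 and 3 it was -5.30 and -6.52, and from replicate 1 it was 0.06 and -1.16.

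*Otud7a* was at 4.13, 8.56 and 8.31 in the control, at 3.72, 3.98 and 3.48 after T247 and at 3.73, 4.56 and 4.56 after MGCD0103. Control replicate 1 was just above the T247 arrays and inside the MGCD0103 range. The log2 difference of this deubiquitinase was -3.27 for T247 and -2.71 for MGCD0103 (SE 0.71), and against replicate 1 alone it was -0.40 and 0.16.

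*Rtn4rl1* was at 4.39, 8.87 and 8.75 in the control, at 4.80, 3.77 and 4.28 after T247 and at 3.76, 4.52 and 3.72 after MGCD0103. Control replicate 1 lay inside both treated ranges. This Nogo receptor relative differed from all controls by -3.05 for T247 and -3.34 for MGCD0103 (log2, SE 0.78), and from replicate 1 by -0.11 and -0.39.

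*Slc22a4* was at 8.86 and 8.61 on control replicates 2 and 3, at 4.61, 5.26 and 4.48 after T247 and at 4.38, 4.63 and 5.17 after MGCD0103. Its signal on control replicate 1 was not positive and significant and was filled in as 5.70, while the deposited log2 signal there was 1.98, below all 6 treated arrays (4.35 to 5.41 as deposited). With the filled-in value, the log2 difference was -2.94 for T247 and -2.99 for MGCD0103 (SE 0.50), and with the deposited value it was -1.67 and -1.72. This transporter gene was well above background on all 6 treated arrays and on 2 of 3 control arrays.

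**Figure D1:**
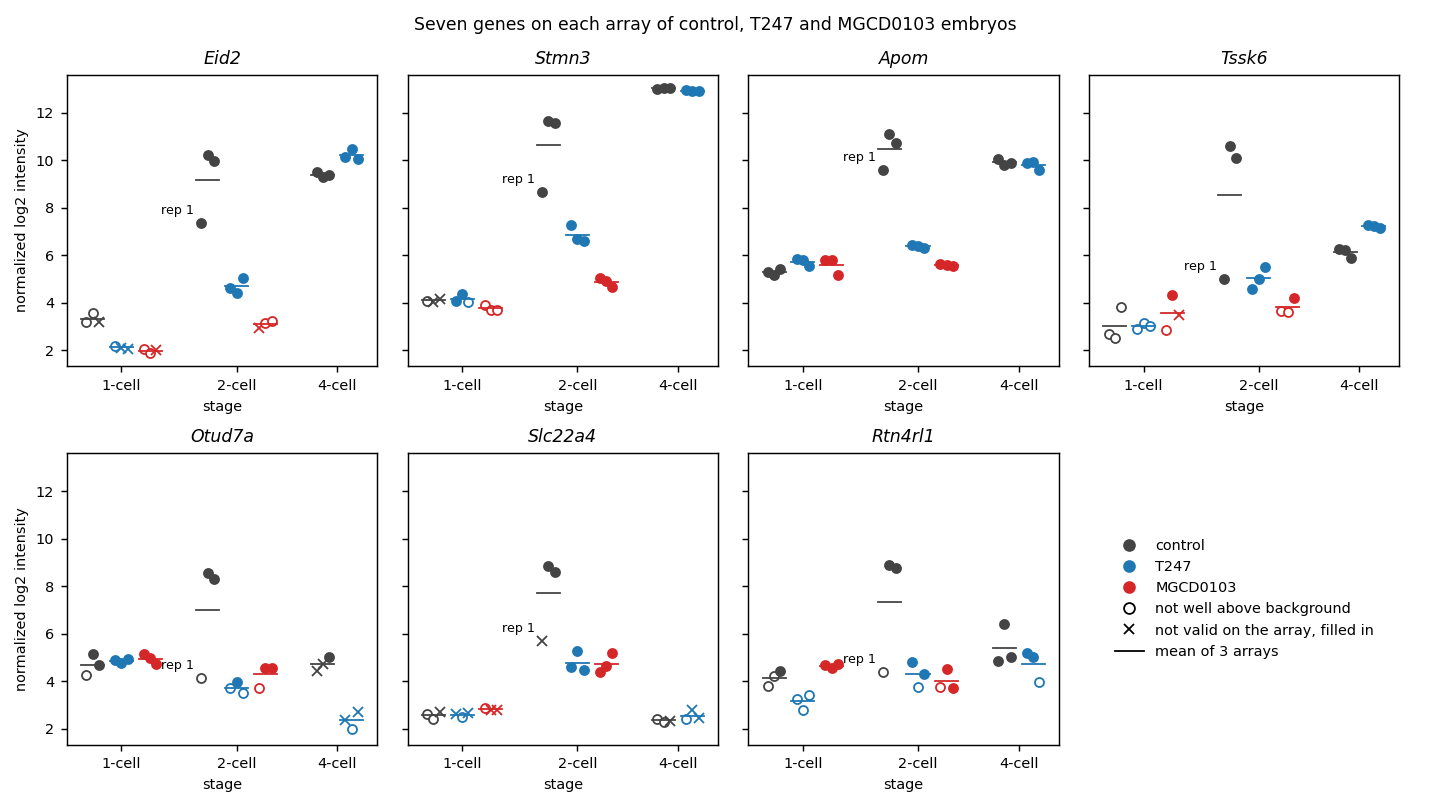
Normalized log2 intensity (vertical axis) of the 7 genes on each array of 1-, 2- and 4-cell embryos (horizontal axis), with control in grey, T247 in blue and MGCD0103 in red, open circles for signals not well above background, crosses for filled-in values and bars for the mean of 3 arrays. At the 2-cell stage control replicate 1 (rep 1) is above all treated arrays for *Eid2*, *Stmn3* and *Apom*, and near them for *Tssk6*, *Otud7a* and *Rtn4rl1*.

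A gene is called here where the log2 difference reached 1 in size with a limma adjusted p under 0.05. By their choice, all 7 genes were called lower for both HDACi, where 16.1% of all genes were for T247 and 15.4% for MGCD0103. Over the 7 genes the median log2 difference was -3.51 for T247 and -4.73 for MGCD0103, against -0.26 and 0.06 over all genes. The 3 treated arrays lay below the 3 control arrays for 5 of the 7 genes with either HDACi (including *Slc22a4* through its filled-in value), and for 37% of all genes with T247 and 27.2% with MGCD0103. Without control replicate 1, which was left out after its values were seen, the log2 differences lay between -5.50 (*Eid2*) and -4.07 (*Slc22a4*) for T247 and between -7.12 (*Eid2*) and -4.12 (*Slc22a4*) for MGCD0103. In that fit the SE for *Stmn3* dropped to 0.153 and that for *Tssk6* to 0.385. The rank of the T247 difference depended on the controls used. From the lowest of 15913 genes, *Eid2* ranked 1 and *Tssk6* 2 against control replicates 2 and 3. Against all 3 controls the ranks were 1 and 7, and against replicate 1 alone 15 and 11095. These values chose the genes, so the ranks are a description. In the other 7 untreated stages, where a gene was well above background on all 3 arrays, replicate 1 differed from the mean of replicates 2 and 3 by -1.26 (*Stmn3* in blastocysts) to 0.94 (*Slc22a4* in blastocysts) on the log2 scale relative to the 75th percentile, whereas at the 2-cell stage the 7 genes differed by -6.43 (*Slc22a4*) to -1.20 (*Apom*).

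**Figure D2:**
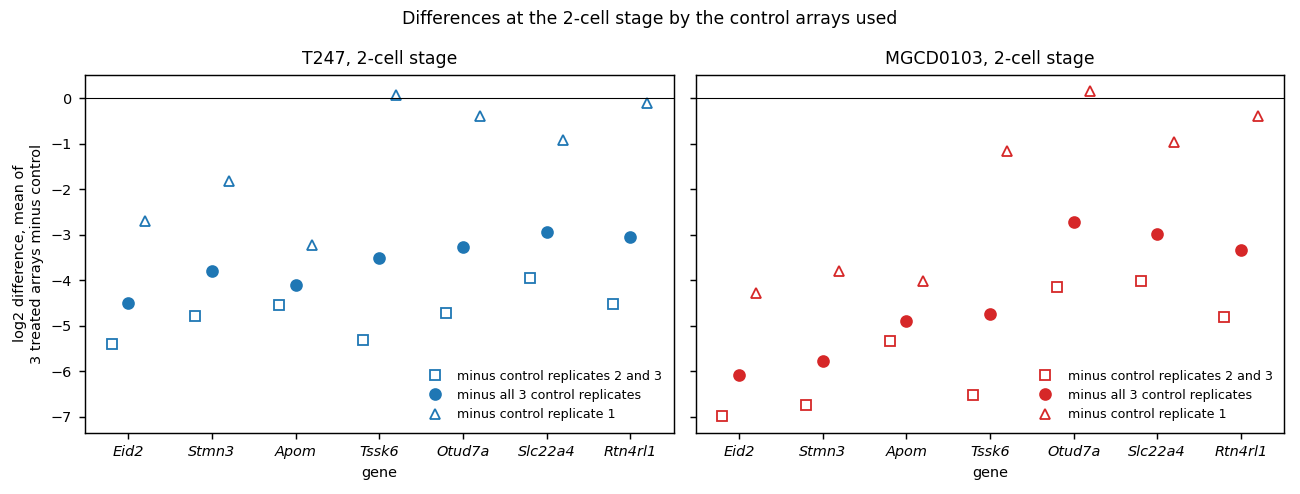
Log2 difference (vertical axis) between the mean of the 3 treated 2-cell arrays and the control for each gene (horizontal axis), with T247 on the left and MGCD0103 on the right, taken against control replicates 2 and 3 (squares), all 3 replicates (filled circles) or replicate 1 (triangles). For *Tssk6*, *Otud7a* and *Rtn4rl1* the T247 triangles lie between -0.40 and 0.06, whereas for *Eid2*, *Stmn3* and *Apom* they lie between -3.22 and -1.82.

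The HDACi were compared with each other at the 2-cell stage, at the same dose and time, in all 7 genes. These treated arrays were among those that chose the genes, so the differences are a description, given with the interval of the fit and no p. In the fit 2 of the 7 genes, *Stmn3* and *Eid2*, and 2.72% of all genes met the call threshold with the lower level after MGCD0103. The log2 difference (MGCD0103 minus T247) of *Stmn3* was -1.97 (SE 0.48, 95% confidence interval -2.97 to -0.97), and the 3 MGCD0103 arrays lay below the 3 T247 arrays. *Eid2* differed by -1.58 (SE 0.45), with MGCD0103 arrays below background, so that it was at least 1.76-fold lower. *Apom* was lower on all 3 MGCD0103 arrays by a smaller step, -0.80 (interval -1.33 to -0.26), under the threshold of 1 in size. *Tssk6* differed by -1.22 with an interval of -3.09 to 0.65. Leaving out 2-cell control replicate 1, which is in neither group but enters the filter, the fill-in, the normalization and the pooled variance, the difference of *Tssk6* was -1.23 (interval -1.96 to -0.50). For *Otud7a*, *Slc22a4* and *Rtn4rl1* the differences were 0.56 (interval -0.92 to 2.04), -0.06 (-1.11 to 1.00) and -0.28 (-1.91 to 1.34), and each interval held 0. With normexp background correction the difference was -1.05 for *Stmn3* and -0.40 for *Eid2*, and without T247 replicate 3 the *Eid2* difference was -1.33. None of these 3 values met the call threshold.

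At the 1-cell stage, after the HDACi had been removed, 0 of the 7 genes passed in limma for T247 or MGCD0103, where 6.57% and 4.07% of all genes did, and 1 gene, *Eid2*, had an unadjusted p under 0.05 in each comparison. Of the 9 arrays, *Eid2* and *Slc22a4* were well above background on none, *Tssk6* on 1 and *Stmn3* on 2. *Eid2* was between 3.18 and 3.56 in the control, between 2.07 and 2.19 after T247 and between 1.89 and 2.06 after MGCD0103, all dim values, of which 4 of 9 were filled in (1 in the control, 2 after T247 and 1 after MGCD0103). The differences were -1.19 (adjusted p = 0.067) and -1.32 (adjusted p = 0.056). *Eid2* passed in both comparisons when 2-cell control replicate 1 was left out of the fit (-1.17, adjusted p = 1.5e-05, and -1.31, adjusted p = 7.0e-06). That fit used filled-in values as well, and no fold is given since every array was at background level. The filled-in control value of *Eid2* was 3.20 on replicate 3, where the deposited log2 signal was 1.90. As deposited, it lay inside the T247 range (1.53 to 2.23) and the MGCD0103 range (1.73 to 1.96). *Apom* was above background on all 9, at 5.28, 5.17 and 5.43 in the control, 5.84, 5.81 and 5.56 after T247 and 5.81, 5.81 and 5.19 after MGCD0103. The T247 arrays of *Apom* lay above the control arrays by 0.44 on average (interval -0.09 to 0.97, adjusted p = 0.25), and MGCD0103 by 0.31 (interval -0.22 to 0.84, adjusted p = 0.49). *Otud7a* was above background on 8 of 9 arrays and differed by 0.16 (interval -1.32 to 1.64) and 0.25 (interval -1.23 to 1.73). *Rtn4rl1* was at 3.78, 4.23 and 4.42 in the control, at 3.26, 2.78 and 3.41 after T247, where no array was above background, and at 4.69, 4.56 and 4.71 after MGCD0103. The groups did not overlap, but the difference from control was not called for either HDACi (adjusted p = 0.42 and 0.75). Between the HDACi it was at least 1.67-fold higher after MGCD0103 (log2 difference 1.50, adjusted p = 0.58). Of the 7 genes, 0 passed in that comparison in limma and 0 had an unadjusted p under 0.05, and 0.277% of all genes passed. Without 2-cell control replicate 1, this difference passed with an adjusted p of 0.047. The label under which the genes were chosen speaks of the 2-cell stage only, so the lack of calls at the other stages is not independent of the choice.

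At the 4-cell stage *Eid2*, *Stmn3* and *Apom* were as bright after T247 as in the control or close to it, and the low 2-cell levels were not seen. *Stmn3* was at 13.002, 13.05 and 13.03 in the control and, slightly lower on each array, at 12.96, 12.91 and 12.91 after T247, with a difference of -0.10 (interval -1.10 to 0.90, adjusted p = 0.88). *Apom* was at 10.06, 9.79 and 9.91 in the control and at 9.89, 9.93 and 9.61 after T247, with a difference of -0.11 (interval -0.64 to 0.42, adjusted p = 0.75). For both genes the interval lay above the T247 difference at the 2-cell stage (-3.79 for *Stmn3* and -4.10 for *Apom*). Those 2-cell differences were part of the choice of the genes. The label of the choice names the 2-cell stage only, so the 4-cell levels are not independent of it and are a description.

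*Eid2* was at 9.53, 9.31 and 9.37 in 4-cell controls and at 10.16, 10.47 and 10.04 after T247, and *Tssk6* at 6.27, 6.24 and 5.91 and at 7.26, 7.23 and 7.17. In both genes the 3 T247 arrays lay above the 3 control arrays, the opposite order from the 2-cell means. The share of all genes separated in this way at the 4-cell stage was not counted. The differences of *Eid2*, 0.82 (SE 0.45, interval -0.11 to 1.76, adjusted p = 0.14), and *Tssk6*, 1.08 (SE 0.89, interval -0.79 to 2.95, adjusted p = 0.34), did not pass. With 2-cell control replicate 1 left out of the fit, the differences were 0.83 (interval 0.50 to 1.15, adjusted p = 0.00017) for *Eid2*, still under 1 in size, and 1.11 (interval 0.39 to 1.84, adjusted p = 0.0097) for *Tssk6*, which then passed, where 18.4% of all genes passed in that fit in either direction. *Rtn4rl1* ranged from 4.84 to 6.39 in the control and from 3.96 to 5.20 after T247, with overlapping arrays (difference -0.68, adjusted p = 0.50). *Otud7a* was the single member called at this stage, with -2.36 (adjusted p = 0.011), while 6.45% of all genes passed in the lower direction. That call rested on filled-in values on 2 of 3 control arrays and 2 of 3 T247 arrays. With the deposited signals, the difference was -1.22 (adjusted p = 0.26). The control was well above background on 1 array and T247 on none, and no fold is given. *Slc22a4* was not well above background on any of the 6 arrays.

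**Figure D3:**
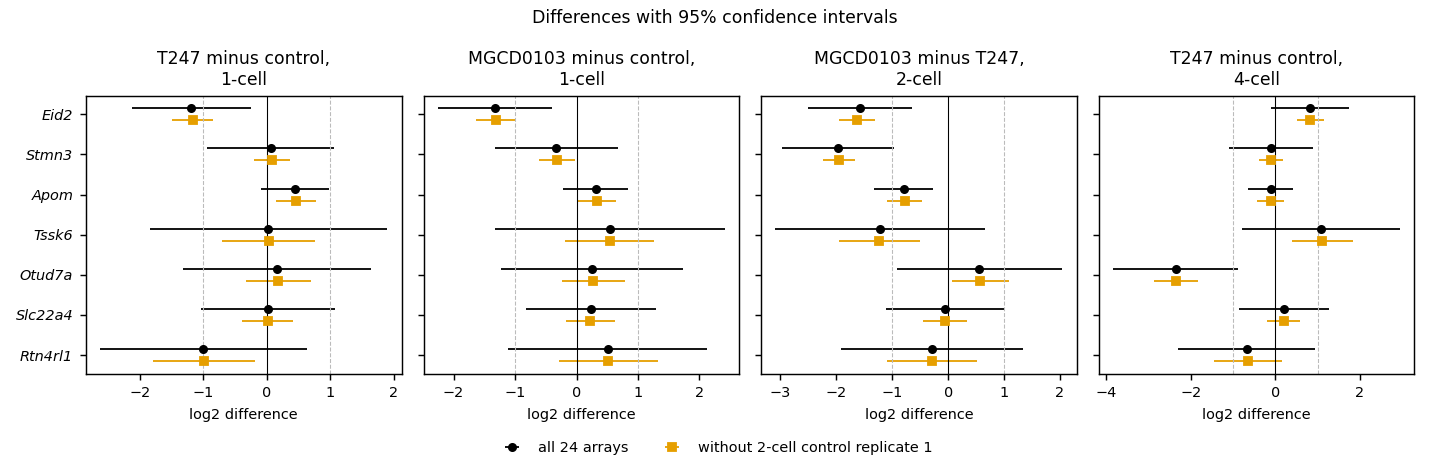
Log2 differences (horizontal axis) of the 7 genes (rows) with 95% confidence intervals from limma, with dashed lines at -1 and 1. Fits used all 24 arrays (circles) or left out 2-cell control replicate 1 (squares). Shown are 3 comparisons at stages other than the 2-cell stage, and MGCD0103 against T247 at the 2-cell stage. The arrays of the latter were among those that chose the genes. The label of the choice names the 2-cell stage only, so the comparisons at other stages are not independent of it either. *Stmn3* and *Eid2* lie below 0 in the 2-cell comparison of MGCD0103 against T247, and the intervals narrow without 2-cell control replicate 1.

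Followed within each treatment from the 1-cell to the 2-cell stage, *Apom* differed by 5.19 in the control, 0.65 after T247 and -0.01 after MGCD0103 (differences of mean normalized log2 intensity, described without a test because the 2-cell arrays chose the genes). The steps of *Stmn3* were 6.53, 2.68 and 1.10, and those of *Eid2* 5.88, 2.57 and 1.12, in each case with 1-cell levels at or near background. All 3 genes had the same order, with the control above T247 and T247 above MGCD0103. Between the 2-cell and the 4-cell stage, the T247 group differed by 3.42 for *Apom*, 6.08 for *Stmn3* and 5.54 for *Eid2*, whereas the control differed by -0.57, 2.39 and 0.21. *Tssk6* moved in opposite directions over this step, by -2.42 in the control and 2.17 after T247. *Otud7a* and *Slc22a4* had lower 4-cell than 2-cell levels in both groups.

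Levels across untreated development are given over all stages. The values below are log2 intensities minus the 75th percentile of the array (mean ± SD, n = 3), fitted over 39 arrays and 22204 genes and not comparable with the scale used above. Between 1-cell and 4-cell controls, 5 of 7 genes rose, where 30.7% of all genes did. Neither group holds a 2-cell array, but the 2-cell arrays that chose the genes enter the pooled variance of the fit. The label of the choice names the 2-cell stage only, so these calls are not independent of it. *Stmn3* rose at least 734-fold, from below background to 5.57 ± 0.0049 (limma adjusted p = 3.3e-18). *Eid2* rose at least 58.2-fold (adjusted p = 1.4e-13) and *Tssk6* at least 5.71-fold (adjusted p = 1.0e-04). *Apom* rose by 5.38 (SE 0.27, adjusted p = 1.9e-17), between 5.19 and 5.54 within slides. *Rtn4rl1* rose by 1.93 (SE 0.64, adjusted p = 0.0090), but not past the threshold without 4-cell control replicate 2 (1.44, adjusted p = 0.070). *Slc22a4* did not pass, and neither did *Otud7a*, which was called lower without 4-cell control replicate 3 (-1.92, adjusted p = 0.013).

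*Stmn3* was highest in 8-cell embryos (5.62 ± 0.12) and 4-cell controls, which overlapped, followed by 4-cell T247 embryos (5.32 ± 0.089), morulae (4.80 ± 0.22), 2-cell controls (2.62 ± 1.65), blastocysts (-0.21 ± 0.76) and 2-cell embryos after T247 (-0.88 ± 0.35), which overlapped blastocysts, and after MGCD0103 (-2.94 ± 0.14). From morula to blastocyst it fell by 5.01 (SE 0.51, adjusted p = 2.7e-09), while 13.6% of all genes fell, and it fell on each slide. *Eid2* was highest in 4-cell embryos after T247 (2.60 ± 0.18), then in 4-cell controls (1.92 ± 0.13), which did not overlap them on this scale, 8-cell embryos (1.26 ± 0.18), 2-cell controls (1.19 ± 1.58), morulae (0.66 ± 0.28) and blastocysts (0.14 ± 0.27). The 8-cell, 2-cell control and morula ranges of *Eid2* overlapped in that order. Below them stood 2-cell T247 embryos (-3.00 ± 0.31), and the remaining 6 conditions were not well above background.

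*Apom* was at 2.50 ± 0.71 in 2-cell controls and 2.45 ± 0.16 in 4-cell controls, which overlapped, then at 2.18 ± 0.12 in 4-cell T247 embryos and 1.98 ± 0.32 in 8-cell embryos, which overlapped too. It fell from the 8-cell stage to the morula (0.24 ± 0.13) by 1.75 (SE 0.27, adjusted p = 3.2e-06, between -1.98 and -1.55 within slides), where 13% of all genes fell. Blastocysts (-0.51 ± 0.67), 2-cell T247 (-1.32 ± 0.056) and 2-cell MGCD0103 embryos (-2.22 ± 0.030) followed. The last did not overlap the 1-cell groups (-2.57 to -2.94) or the oocytes (-3.37 and -3.43), whose neighbours overlapped each other.

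*Tssk6* was highest in 2-cell controls (0.55 ± 3.11), whose range took in the next group, 4-cell T247 embryos (-0.45 ± 0.047). These did not overlap 4-cell controls (-1.43 ± 0.21). It was lower in 8-cell embryos (-2.41 ± 0.43), morulae (-2.61 ± 0.40) and 2-cell T247 embryos (-2.63 ± 0.48), which overlapped, and in GV oocytes (-3.43 ± 0.16), and 2-cell MGCD0103 embryos (-3.99 ± 0.37) and blastocysts (-4.13 ± 0.41) were above background on 1 array each. *Otud7a* was at -0.93 ± 2.46 in 2-cell controls and at -2.43 ± 0.19 in GV oocytes, inside the range of the 2-cell controls. Its 1-cell, MII and treated 2-cell means lay between -3.96 and -3.43 with overlapping ranges, and it was not above background on any array from the 8-cell stage on.

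*Rtn4rl1* was at -0.62 ± 2.54 in 2-cell controls and -0.93 ± 0.47 in morulae, and then, with overlapping ranges, at -1.69 ± 0.39 in 8-cell embryos, -2.15 ± 0.84 in 4-cell controls, -2.43 ± 0.38 in blastocysts and -2.56 ± 0.25 in MII oocytes. It rose from GV to MII oocytes by 1.75 (SE 0.64, adjusted p = 0.017), where 37.9% of all genes rose and the median of all genes was 0.70. Without MII replicate 2 that rise was 1.62 (adjusted p = 0.053), and under smooth quantile normalization it was 0.48 (adjusted p = 0.61). Under that normalization 5 of the other 6 genes were called lower in MII oocytes, among them *Apom* (-1.15) and *Eid2* (-1.28). So were 8643 of all 22204 genes, with 82 called higher and a median of -0.61 over all genes. *Slc22a4* had its highest mean in blastocysts (0.30 ± 0.71), ahead of 2-cell controls (-1.38 ± 3.72), where replicate 1 was at -5.67, not positive and significant, and replicates 2 and 3 were at 0.88 and 0.65, above the blastocyst mean. Next came 2-cell T247 (-2.90 ± 0.42) and 2-cell MGCD0103 embryos (-3.09 ± 0.45), with overlapping neighbours, and was not well above background in the other 9 conditions. From morula to blastocyst it rose at least 17.1-fold (adjusted p = 7.4e-06), where 10.7% of all genes rose. From MII oocyte to 1-cell embryo 0 of the 7 genes passed in limma (16.9% of all genes did) and 1 had an unadjusted p under 0.05, *Rtn4rl1* with -1.51 (adjusted p = 0.070). Without 2-cell control replicate 1 in the fit, *Rtn4rl1* passed there with an adjusted p of 0.00068. Without 1-cell control replicate 1, *Stmn3*, not well above background on any array of either group, passed with -1.47 (adjusted p = 0.023). From 4-cell to 8-cell embryos 0 passed and 0 had an unadjusted p under 0.05, where 11.7% of all genes passed.

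**Figure D4:**
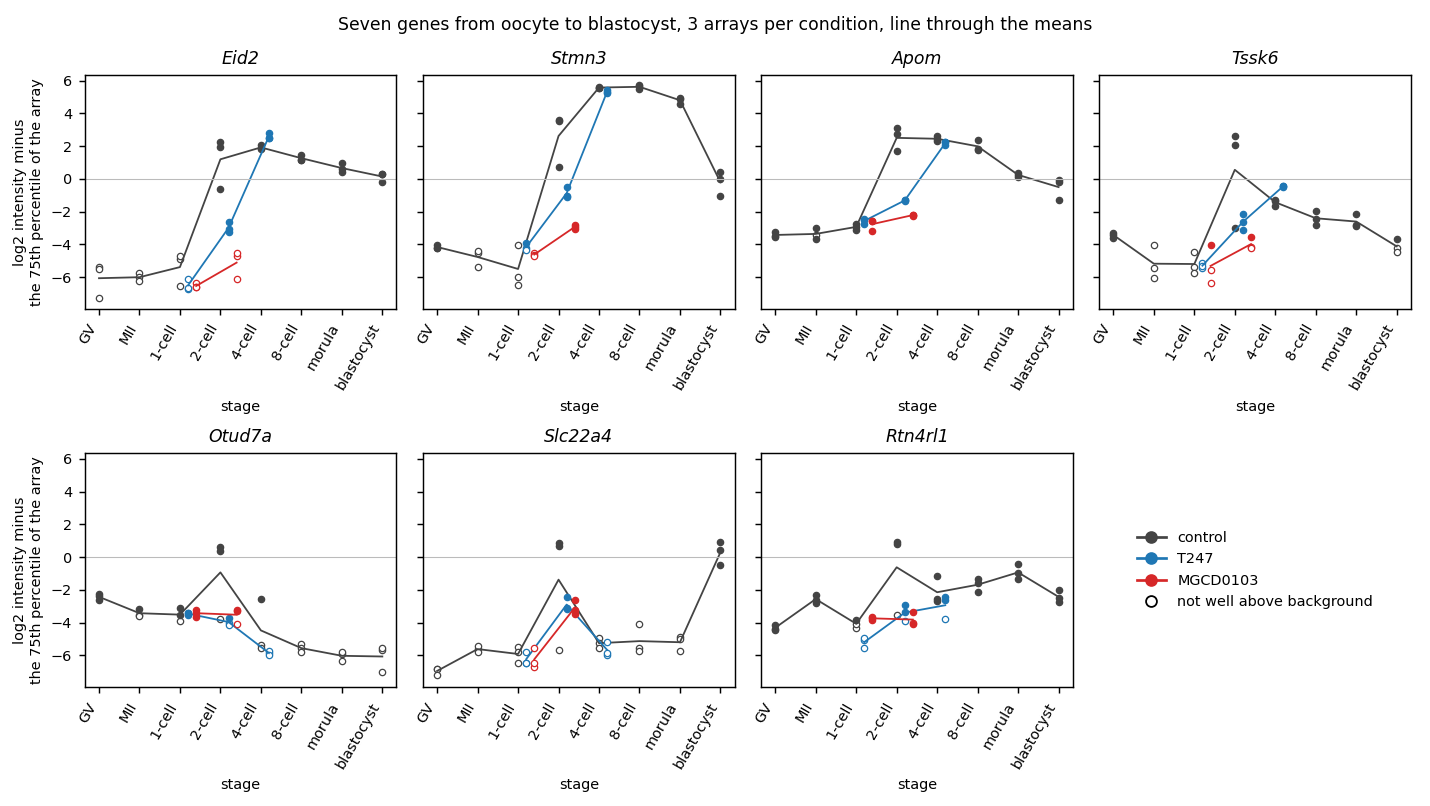
Log2 intensity minus the 75th percentile of the array (vertical axis) for the 7 genes from GV oocyte to blastocyst (horizontal axis), with points for single arrays, open where not well above background, and lines through the means of 3 arrays for control (grey), T247 (blue) and MGCD0103 (red). *Eid2*, *Stmn3* and *Apom* stay well above background from the 4-cell stage to the morula. From 4-cell controls to morulae the means go from 1.92 to 0.66 for *Eid2*, 5.57 to 4.80 for *Stmn3* and 2.45 to 0.24 for *Apom*. At the 4-cell stage the T247 means of *Stmn3* (5.32) and *Apom* (2.18) lie close to those of the control (5.57 and 2.45).

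Over the 13 condition means, the profiles of *Eid2*, *Stmn3* and *Apom* correlated with r of 0.947 to 0.958, and *Tssk6* with them at 0.812 to 0.874. *Otud7a* correlated with *Eid2* at -0.49 and with *Stmn3* at -0.50. The values are descriptions over conditions that share slides and stages, and the 2-cell means chose the genes. The 5 genes outside the group with the profile most like the mean standardized profile of the 7 were *Hesx1* (r = 0.959), a homeobox repressor of forebrain and pituitary development, *Zrsr1* (0.946), a splicing factor gene, *Gpx7* (0.938), a peroxidase of the endoplasmic reticulum, *Kcnmb4* (0.937), a potassium channel subunit, and *4833427F10Rik* (0.932), each over 13 conditions. *Hesx1* was at -0.08 in 2-cell controls, -2.50 after T247, -3.99 after MGCD0103 and -1.26 in 4-cell controls on the scale relative to the 75th percentile. *Zrsr1* was at 2.71, 0.95, 0.22 and 1.50.

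Most of the tested paralogs and partners of the 7 genes were not called lower at the 2-cell stage. Of 44 such genes, 31 were tested. After T247 treatment, 1 was higher and 3 were lower in 2-cell embryos, where 24.8% of all genes were called and 16.1% were lower. The median log2 difference was -0.22 against -0.26 over all genes. For MGCD0103 3 were higher and 8 lower, where 27.6% of all genes were called and 15.4% were lower. The median there was 0.03 against 0.06. *Tsks*, which encodes a substrate of testis-specific kinases, was lower by both, with -2.34 (SE 0.49, adjusted p = 0.00046) for T247 and -2.88 (adjusted p = 6.9e-05) for MGCD0103. *Rtn4r*, the Nogo receptor gene, was lower as well, with -1.59 (adjusted p = 0.00048) and -1.29 (adjusted p = 0.0030). *Apoe*, another apolipoprotein, differed by -1.43 (adjusted p = 0.00097) and -1.84 (adjusted p = 1.0e-04), without overlap between treated and control arrays. In the sphingosine 1-phosphate list, the kinase gene *Sphk1* was lower with MGCD0103 by -2.71 (SE 1.07, adjusted p = 0.038) and the receptor gene *S1pr5* by -1.88 (adjusted p = 0.0088), both with overlapping arrays. The stathmins *Stmn1* and *Stmn4* went the other way from *Stmn3* after MGCD0103, with 1.06 (adjusted p = 9.1e-06) and 1.08 (adjusted p = 0.0031). *Vcpip1*, from the list of deubiquitinases related to *Otud7a*, was also higher after MGCD0103, by 1.55 (limma adjusted p = 0.0039), with overlapping arrays. *Ep300* and *Crebbp*, the acetyltransferases that EID proteins bind, were below 1 in size in both 2-cell comparisons (-0.50 and -0.26 for *Ep300*, 0.48 and 0.59 for *Crebbp*, with adjusted p of 0.00051, 0.044, 0.049 and 0.017), and *Eid1* was lower after MGCD0103 by -1.04 (adjusted p = 0.0045). In 4-cell embryos 7 of the 31 genes were higher after T247 and 0 lower, where 11.3% of all genes were higher. Leaving out 2-cell control replicate 1, the calls at the 2-cell stage numbered 12 instead of 4 for T247 and 14 instead of 11 for MGCD0103. The share of all genes called rose too in that fit, to 32.8% for T247 and 36.9% for MGCD0103.

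The chromosomal neighbours, the 2 protein-coding genes on each side of each member, were tested for 25 of 28. For T247 1 was higher and 6 were lower, where 24.8% of all genes were called and 16.1% were lower. The median log2 difference was -0.72 against -0.26 over all genes. For MGCD0103 4 were higher and 5 lower, where 27.6% of all genes were called and 15.4% were lower. The median there was -0.44 against 0.06. *Fbl*, the second gene from *Eid2*, encodes fibrillarin, a methyltransferase of ribosomal RNA. It lay between 10.95 and 11.77 in 2-cell controls, between 8.93 and 9.17 after T247 (-2.44, adjusted p = 9.2e-10) and between 7.93 and 8.08 after MGCD0103 (-3.47, adjusted p = 9.7e-12). *Gmeb2*, next to *Stmn3*, encodes a DNA-binding protein and differed by -1.43 (adjusted p = 2.7e-06) and -2.80 (adjusted p = 8.1e-10). *Arfrp1*, the second gene on the other side of *Stmn3*, encodes a small GTPase of the Golgi and differed by -1.77 (adjusted p = 7.2e-06) and -2.66 (adjusted p = 5.3e-08). In these 3 neighbours all 3 control arrays, replicate 1 included, lay above all treated arrays. Leaving out that replicate raised the number of neighbours called for T247 from 7 to 12, and the share of all genes called from 24.8% to 32.8%.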

How the data were processed

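Per the deposited file headers, the intensity values come from 1-colour Agilent arrays read with Feature Extraction 10.7.1.1 (9.5.1.1 in the submitters' processing notes), which subtracted background and removed trends across each array. The values of MGCD0103 1-cell replicate 1 were saved to 3 digits. The authors' deposited log2 values, after their detection filter, fill-in and smooth quantile normalization, were used as an alternative (19143 probes, of the 7 genes *Apom* alone). Its column medians were 8.71 to 10.5, and its values correlated with the scanner's on the log2 scale with r of 0.998 to 1.000. No spot was saturated, and between 62.4% and 77.3% of probes per array were positive and significant.

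The treatment comparisons used 24 arrays and the study's steps: signals not positive and significant were set missing, probes had to be detected in each of 8 conditions (1 array or more), which kept 21430 and removed 9950, missing values (2.89%) were filled in from a robust covariance that left out the 10% of genes farthest from the rest, the brightest probe stood for a gene, and log2 values underwent smooth quantile normalization with a window of 5%, written for this work. The stage comparisons used 39 arrays, log2 of the deposited intensity minus the 75th percentile of the array, and probes detected in at least 1 condition. Both were fitted with limma 3.58.1 (statmod 1.5.0, R 4.3.3) with Benjamini-Hochberg adjustment over all genes. The labels do not say that replicates came from separate fertilizations, so p-values measure the spread between these pools. Separation of the arrays of 2 groups was counted over all genes only for treated below control at the 2-cell stage. A bound ("at least N-fold") places each dim array at the dimmest signal flagged well above background there, or at its own signal where that was higher, and the number of arrays limits the precision.

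The 7 genes and the lists of paralogs, partners and markers were chosen with earlier results of these data known. Named besides them were listed genes and neighbours called at the 2-cell stage, at most the 3 largest changes in a list, and the 5 genes with the most similar profile. A transporter gene and another gene of the Nogo receptor list, called lower after MGCD0103, are not named. *Ep300*, *Crebbp* and *Eid1* are named as the partners and relative of *Eid2*. The alternatives were quantile normalization, scaling to the 75th percentile or smooth quantile normalization, normexp background correction (offset 50), no detection filter, no fill-in, the mean of a gene's probes, the authors' table, blocks for replicate number or slide, and leaving out each array of a comparison. Leaving 2-cell control replicate 1 out of every fit was added after its values were seen. The code was tested on simulated data.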

Additional observations from a re-analysis of the deposited data

Results flagged for a closer look

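In the limma fit of MGCD0103 against T247 at the 2-cell stage, at the same dose and time, the values of *Eid2* and *Stmn3* met the call threshold. These treated arrays were among those that chose the genes, so the values are a description and no p is given. The difference of *Eid2* was -1.58 on the log2 scale (MGCD0103 minus T247), where none of the 3 MGCD0103 arrays was well above background, and that of *Stmn3* was -1.97. MGCD0103 was lower than T247 on all arrays of both genes, and the share of all genes separated in this way was not counted. Slide and treatment cannot be told apart in this comparison.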

How the results depend on the processing

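All 7 genes were called lower at the 2-cell stage for T247 and for MGCD0103 without any 1 of the arrays compared (7 and 7), which follows from their choice and says nothing about stability. In the authors' table, which holds *Apom* alone of the 7, 1 was called for T247 and 1 for MGCD0103. *Slc22a4* was not called for either HDACi with deposited values in place of the fill-in. The cause of the changes below was not tested, apart from the smaller tables. Between MGCD0103 and T247 at the 2-cell stage, 2 genes were called, but 0 with normexp and 0 in the authors' table, and 1 to 3 without 1 array (1 without T247 replicate 3, 3 without 2-cell control replicate 1). At the 4-cell stage 1 gene was called, 0 with deposited values, with no filter, with normexp and in the authors' table, and 0 to 2 without 1 array (0 without T247 replicate 2 and 0 without control replicate 3, where *Otud7a* did not pass the filter and was not tested, and 2 without 2-cell control replicate 1). At the 1-cell stage, 0 calls became 1 (*Eid2*) for T247 and 1 for MGCD0103 under scaling to the 75th percentile, and ranged from 0 to 1 without 1 array in either comparison, and in that of MGCD0103 with T247, the 1 always without 2-cell control replicate 1.

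From GV to MII oocytes 1 gene was called, 2 with the mean of probes, 3 with normexp, 5 under smooth quantile normalization, where *Apom* (-1.15) and *Eid2* (-1.28) reversed, and 1 to 3 without 1 array (3, with *Tssk6* and *Slc22a4* added, without 2-cell control replicate 1). Smooth quantile normalization called 8643 of all 22204 genes lower there and 82 higher. Without 1 array, the calls ranged from 0 to 1 for MII to 1-cell, from 4 to 6 for 1-cell to 4-cell and from 2 to 4 for morula to blastocyst (2 in the full fit and 4, with *Tssk6* and *Rtn4rl1* added, without 2-cell control replicate 1), and stayed at 0 for 4-cell to 8-cell and 1 for 8-cell to morula. Of the paralogs and partners, 11 were called for MGCD0103, 5 with normexp, 6 in the authors' table and 5 to 14 without 1 array, and 4 for T247, 7 under scaling to the 75th percentile, 8 with no filter and 3 to 12 without 1 array. Of the neighbours, 9 were called for MGCD0103, 3 with normexp, 4 in the authors' table and 6 to 12 without 1 array, and 7 for T247, 4 with normexp and 6 to 12 without 1 array. The highest of these 4 ranges came without 2-cell control replicate 1, where 32.8% of all genes were called for T247 and 36.9% for MGCD0103.

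In no comparison did the deviations of all 3 pairs of arrays with the same replicate number correlate above 0.1, so the numbers were not taken as pairing. The correlations were -0.18, -0.13 and -0.06 for T247 and 0.21, 0.01 and 0.21 for MGCD0103 at the 2-cell stage. In the 6 stage comparisons, where the number is the slide, 17 of 18 were above 0 (0.24, 0.07 and 0.25 for MII to 1-cell, the highest). With replicate number as a block, which for the stages is the slide, 2 genes instead of 1 were called from GV to MII, and no other count for the 7 genes changed. Over all genes, normexp lowered the counts of calls by over 1.5 times in 11 of 13 comparisons (exceptions were GV to MII, from 12496 to 12826, and 1-cell to 4-cell, from 12998 to 9840), for example from 3952 to 2297 for T247 and from 4385 to 2695 for MGCD0103 at the 2-cell stage, from 967 to 276 between them, from 1045 to 357 and from 647 to 234 at the 1-cell stage, from 2828 to 1045 at the 4-cell stage and from 2602 to 916 for 4-cell to 8-cell. The share of all calls that were higher moved with scaling. At the 2-cell stage it was 35.1% for T247 and 52.7% under scaling to the 75th percentile (median over all genes -0.26 and -0.06), 55.2% and 24.7% for MGCD0103 against T247 there, and 63.7% and 49.4% for T247 at the 4-cell stage. Under smooth quantile normalization it went from 67.3% to 0.940% for GV to MII, from 49.0% to 81.8% for 8-cell to morula and from 44.1% to 71.8% for morula to blastocyst. With slide as a random block (correlation 0.195) the counts for the 7 genes in the treatment comparisons were unchanged.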
